A study of Mus musculus with 8 samples.

Results

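The 39 protein-coding mouse HOX genes of the Hoxa, Hoxb, Hoxc and Hoxd clusters were taken from the deposited count table by symbol, a cluster letter followed by a number, among 56884 rows in all. They were followed in Lacun3, a murine lung adenocarcinoma cell line, in an Stk11-knockout line made from it with CRISPR (STK11 KO) and in the unedited parental line (STK11 WT). The product of Stk11 is LKB1, a kinase upstream of AMPK that acts as a tumour suppressor. Each genotype was represented by 4 bulk RNA-seq libraries of untreated cells in logarithmic growth, called biological replicates in the labels. The labels describe 1 knockout and 1 parental line, so that genotype and line cannot be told apart, and p-values measure the spread between cultures of these lines.

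HOX genes encode homeodomain transcription factors that give cells their position along the body axis. They lie side by side in clusters, numbered so that genes with low numbers act toward the head end and are generally activated earlier than those with high numbers. Polycomb complexes keep unused HOX genes silent, MLL-menin complexes keep used ones active, and retinoic acid switches on genes at the low-numbered end. In the mouse, Hoxa5 is required for normal development of the trachea and lung.

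Libraries held 21441601 to 25715008 counts in STK11 KO and 18837263 to 21101904 in STK11 WT, so that a single count equalled 0.0388 to 0.0515 CPM, a unit that scales counts by library size. Stk11, the targeted gene, was at 35.3, 35.1, 33.45 and 34.95 CPM in the STK11 KO libraries, against 64.9, 67.0, 68.4 and 64.6 CPM in the STK11 WT libraries (log2 fold change -0.93 ± 0.06 SE, edgeR adjusted p = 2.03e-12). The labels do not give the edited site, and counts per gene cannot show it. Of 6 epithelial markers 5 were at 1 CPM or more in both groups, while of 7 lung epithelial markers only Napsa reached that level, at 1.07 CPM in STK11 KO and 1.31 CPM in STK11 WT. Nkx2-1 had 0 counts in STK11 KO and 1 in STK11 WT. The surfactant genes Sftpc and Sftpa1 had none in any library, and Sftpb had 0 counts in STK11 KO and 1 in STK11 WT, so these markers of alveolar epithelium were at or near 0 while Napsa was present at a low level. Among markers of other cell types, 1 of 7 fibroblast, 1 of 4 endothelial and 1 of 5 leukocyte genes reached 1 CPM in each group. Their summed levels were 2.02 to 3.07 CPM in STK11 KO and 3.91 to 5.71 CPM in STK11 WT for fibroblasts, 3.41 to 4.80 CPM in STK11 KO and 1.05 to 1.85 CPM in STK11 WT for endothelium, and 13.0 to 25.4 CPM in STK11 KO and 46.7 to 53.0 CPM in STK11 WT for leukocytes. The leukocyte sum was nearly all Cd68, at 19.1 CPM in STK11 KO and 48.9 CPM in STK11 WT. Ptprc, which marks leukocytes, had 0 counts in STK11 KO and 1 in STK11 WT. The part of these markers in the results was not tested.

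HOX expression in these cells came almost wholly from the Hoxa cluster. Of the 39 genes, 20 had at least 1 count in some library and 19 had none in any of the 8 libraries. Together they collected 1125 counts in STK11 KO and 1152 in STK11 WT, and the 11 genes of the Hoxa cluster, on chromosome 6 from position 52132570 to 52237788 (GRCm39), held 94.9% of these counts. Hoxa9, Hoxa10, Hoxa11 and Hoxa13, at the high-numbered end of that cluster, had 0 counts together in STK11 KO and 9 in STK11 WT. All 9 genes of the Hoxd cluster had 0 counts in every library. A count of 0 over a group allows up to 3 counts, which corresponds to 0.0338 CPM in STK11 KO and 0.0358 CPM in STK11 WT; such limits cover counting error only.

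**Figure D1:**
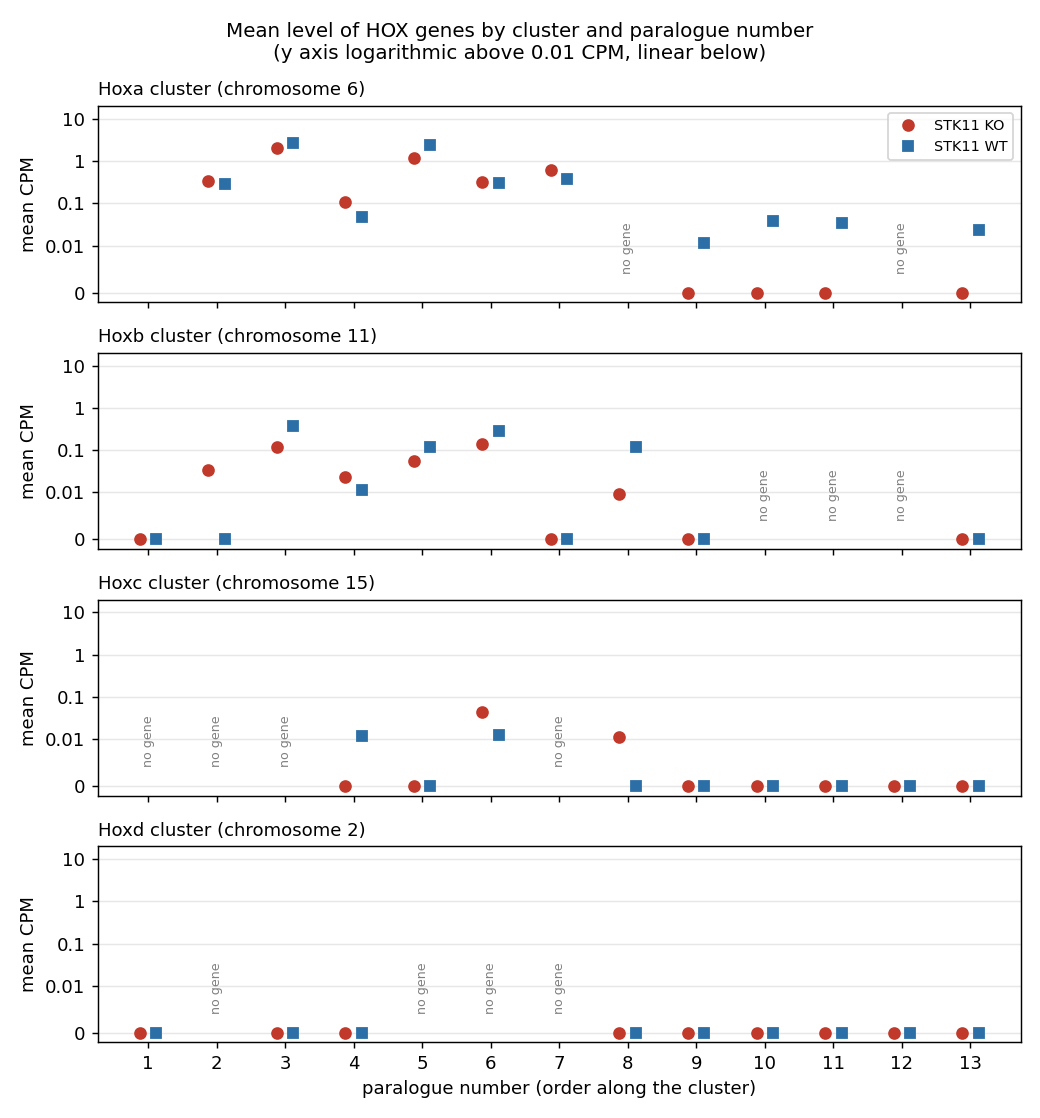
Mean CPM of HOX genes (y axis, logarithmic above 0.01 CPM and linear below) against paralogue number (x axis), 1 panel per cluster. Red circles are the means of 4 STK11 KO libraries and blue squares those of 4 STK11 WT libraries. The points above 1 CPM lie in the Hoxa panel, at Hoxa3 and Hoxa5, and every Hoxd point lies at 0.

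Only 4 HOX genes had enough counts to be tested, and all 4 lie in the Hoxa cluster, Hoxa3, Hoxa5 and Hoxa7 among them. Of these 4, 1 passed edgeR's quasi-likelihood test, Hoxa5, which fell in STK11 KO. Of all 13707 genes that entered the test 68.0% passed (34.4% with a rise and 33.6% with a fall in STK11 KO), and among the 3720 genes within the expression range of the 4 HOX genes 57.2% passed. A share of 1 in 4 is no higher than these backgrounds. The median log2 fold change was -0.10 over the 4 HOX genes and 0.01 over all tested genes.

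HOX genes are much alike in their homeobox, so that reads could be confused between them. Sequencing reads were 51 bases long, and none of the 1827 stretches of 51 bases in the Hoxa5 transcripts occurred in the transcripts of another gene. The same held for the 2867 stretches of Hoxa7. In Hoxa3, 440 of 5959 such stretches (7.38%) occurred in another gene, and none of them in a HOX gene.

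Hoxa5, the fifth paralogue of the cluster, lies on the minus strand of chromosome 6 from position 52178734 to 52181567 (GRCm39; ENSMUSG00000038253.7). It was at 0.792, 0.988, 1.40 and 1.53 CPM in the STK11 KO libraries, against 2.43, 2.22, 2.66 and 2.57 CPM in the STK11 WT libraries. All 4 STK11 KO libraries lay below all 4 STK11 WT libraries, a separation that 60.6% of all tested genes also showed. The group levels were 1.18 ± 0.344 CPM in STK11 KO and 2.47 ± 0.191 CPM in STK11 WT (SD, n = 4 each). The log2 fold change was -1.05 ± 0.21 SE (95% interval -1.46 to -0.63, edgeR adjusted p = 0.000148). In bulk RNA, fewer cells with Hoxa5 transcripts and less Hoxa5 RNA per cell cannot be told apart. The values rest on 106 raw counts in STK11 KO and 207 in STK11 WT. Hoxa5 was also the 1 HOX gene past a 2-fold change, a size that 16.4% of all tested genes reached in either direction and 9.41% reached downward. Its log2 fold change was -0.91 without STK11 KO replicate 1 and -0.97 without STK11 KO replicate 2, short of 2-fold but still past the test (edgeR adjusted p = 0.000782 and 0.00101).

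**Figure D2:**
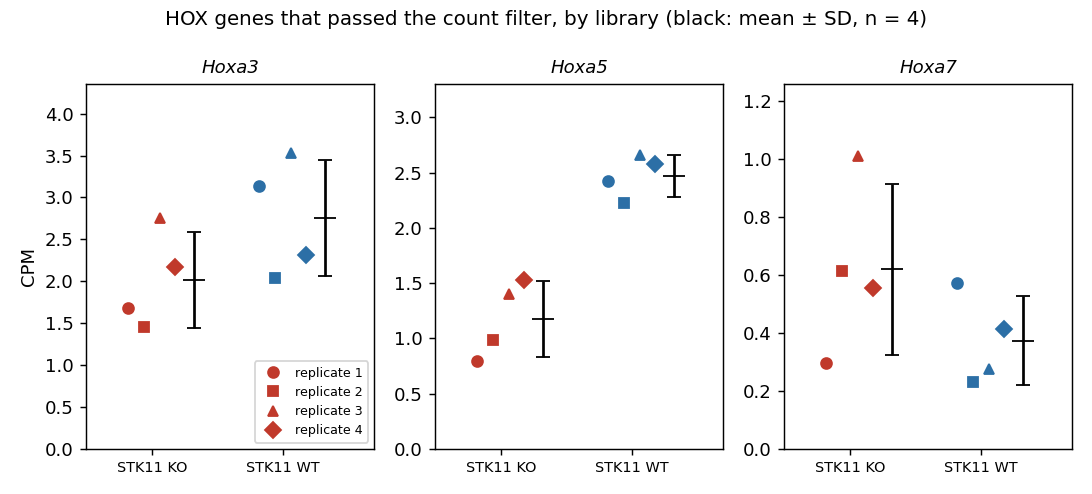
CPM (y axis, linear from 0, with a scale of its own in each panel) of Hoxa3, Hoxa5 and Hoxa7 in each of 4 STK11 KO (red, left) and 4 STK11 WT (blue, right) libraries; the marker shape gives the replicate number, and black bars show mean ± SD. In the Hoxa5 panel the STK11 KO points end at 1.53 CPM and the STK11 WT points begin at 2.22 CPM, whereas the groups overlap in the other panels.

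Hoxa3, a gene of neck and pharyngeal development, was at 2.02 ± 0.575 CPM in STK11 KO and 2.76 ± 0.696 CPM in STK11 WT (SD, n = 4 each). The groups overlapped, with a log2 fold change of -0.43 ± 0.22 SE (unadjusted 95% interval -0.85 to -0.003, edgeR adjusted p = 0.0852). It passed without STK11 WT replicate 2 (log2 fold change -0.55, edgeR adjusted p = 0.0338) and without STK11 KO replicate 3 (-0.64, edgeR adjusted p = 0.0143), fits in which 64.4% and 69.3% of all tested genes passed. The Hoxa5 count per Hoxa3 count was 0.471, 0.677, 0.507 and 0.702 in the STK11 KO libraries and 0.773, 1.09, 0.753 and 1.11 in the STK11 WT libraries. These ratios, which need no library size, did not overlap, a separation that 60.6% of single tested genes also showed. The gap was narrow, from 0.702 in STK11 KO to 0.753 in STK11 WT. The ratios contain the Hoxa5 counts that passed the test and are not separate evidence.

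Hoxa7, the next tested gene past Hoxa5, had the opposite sign and did not pass. It was at 0.618 ± 0.294 CPM in STK11 KO and 0.372 ± 0.153 CPM in STK11 WT (SD, n = 4 each), with overlapping groups. The log2 fold change was 0.78 ± 0.40 SE (95% interval -0.01 to 1.58, edgeR adjusted p = 0.0908). It passed the count filter mainly through its STK11 KO libraries, 3 of which lay above 0.5 CPM against 1 of the STK11 WT libraries. It passed the test without STK11 WT replicate 1 (log2 fold change 1.07, edgeR adjusted p = 0.0475) or without STK11 KO replicate 1 (1.00, edgeR adjusted p = 0.0299), fits in which 64.1% and 66.6% of all tested genes passed. With each of these 4 libraries left out in turn, 2 HOX genes passed in place of 1.

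Levels of different genes were compared as CPM per kb of exon, with exon lengths from GENCODE vM21. On that scale Hoxa5 was at 0.627 in STK11 KO and 1.32 in STK11 WT. Below it came Hoxa6 at 0.373, Hoxa3 at 0.336, Hoxa7 at 0.215 and Hoxa2 at 0.189 CPM per kb in STK11 KO. In STK11 WT the order below Hoxa5 was Hoxa3 at 0.458, Hoxa6 at 0.357, Hoxa2 at 0.160 and Hoxa7 at 0.129 CPM per kb. In STK11 WT, Hoxa5 lay clear of Hoxa3, its lowest library at 1.18 CPM per kb against a highest of 0.587 for Hoxa3. In STK11 KO they overlapped, Hoxa5 beginning at 0.422 and Hoxa3 ending at 0.458 CPM per kb. Hoxa3 and Hoxa6 overlapped in both groups, as did Hoxa2 and Hoxa7. Gm28308, a noncoding row of the same strand, shares 267 of the 1775 exon bases of Hoxa2 and 482 of the 6014 of Hoxa3. Reads from bases shared in that way appeared to be left uncounted, but full exon lengths were the divisor. The levels of Hoxa2 and Hoxa3 may therefore be too low, and the order of Hoxa7 and Hoxa2 in STK11 KO is not settled. Hoxa4, which lies beside Hoxa5, was at 0.0662 CPM per kb in STK11 KO and 0.0294 in STK11 WT, lower than Hoxa5 in both.

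Hoxa2, Hoxa4 and Hoxa6 had too few counts to be tested. Hoxa2, a hindbrain and branchial arch gene, had 30 counts in STK11 KO and 24 in STK11 WT, a ratio of CPM of 1.18 with a 95% counting interval of 0.667 to 2.11. Hoxa6 had 30 counts in STK11 KO and 26 in STK11 WT, a ratio of 1.09 with an interval of 0.623 to 1.92, and lies next to Hoxa5. Hoxa4 had 10 counts in STK11 KO, 6 of them in replicate 3, and 4 in STK11 WT. The counting intervals of Hoxa2 and Hoxa6 include equality, and they cover counting error only.

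The Hoxb cluster lies on chromosome 11 from position 96085142 to 96259082 (GRCm39) and was expressed at a trace level, with lower sums in the STK11 KO libraries. Its 10 genes collected 34 counts in STK11 KO and 75 in STK11 WT, 4.79% of all HOX counts. The summed level was 0.396, 0.518, 0.349 and 0.278 CPM in the STK11 KO libraries, against 0.761, 0.787, 1.10 and 0.926 CPM in the STK11 WT libraries. The groups did not overlap, a separation that 60.6% of single tested genes also showed. They averaged 0.385 ± 0.101 CPM in STK11 KO and 0.894 ± 0.155 CPM in STK11 WT (SD, n = 4 each). This sum was described and not tested.

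By gene, the mean level in STK11 WT less that in STK11 KO was 0.248 CPM for Hoxb3, 0.134 CPM for Hoxb6 and 0.108 CPM for Hoxb8, named here after their values were seen. Hoxb3, which acts in the hindbrain and pharyngeal region, had 5, 5, 0 and 0 counts in the STK11 KO libraries and 6, 7, 11 and 7 in the STK11 WT libraries. Hoxb8 had 0, 0, 1 and 0 counts in the STK11 KO libraries and 2, 4, 3 and 1 in the STK11 WT libraries. Hoxb3 and Hoxb8 separated the groups in CPM, as 60.6% of all tested genes did. For Hoxb8, STK11 KO replicate 3 (0.0388 CPM) and STK11 WT replicate 4 (0.0515 CPM) both held 1 count and differed only by library size. The ratio of STK11 WT over STK11 KO was 3.28 for Hoxb3, with a 95% counting interval of 1.57 to 7.51, and 10.6 for Hoxb8, with an interval of 1.51 to 459.6. Neither gene passed the count filter. When every row with a count was tested, 20 HOX genes entered and 3 passed, against 38.1% of all 27134 rows: Hoxa5, Hoxb3 (log2 fold change -1.66 ± 0.58 SE, edgeR adjusted p = 0.0131) and Hoxb8 (-2.87 ± 1.18 SE, edgeR adjusted p = 0.0409). In the deposited log2 table, which retained 8 HOX genes, limma called Hoxa5 and Hoxb3 (-2.35 ± 0.78 SE, limma adjusted p = 0.0136), where 63.3% of 15726 genes passed. In Hoxb3, 2250 of 4251 exon bases overlap the exons of Hoxb3os on the opposite strand, which had 0 counts in every library.

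**Figure D3:**
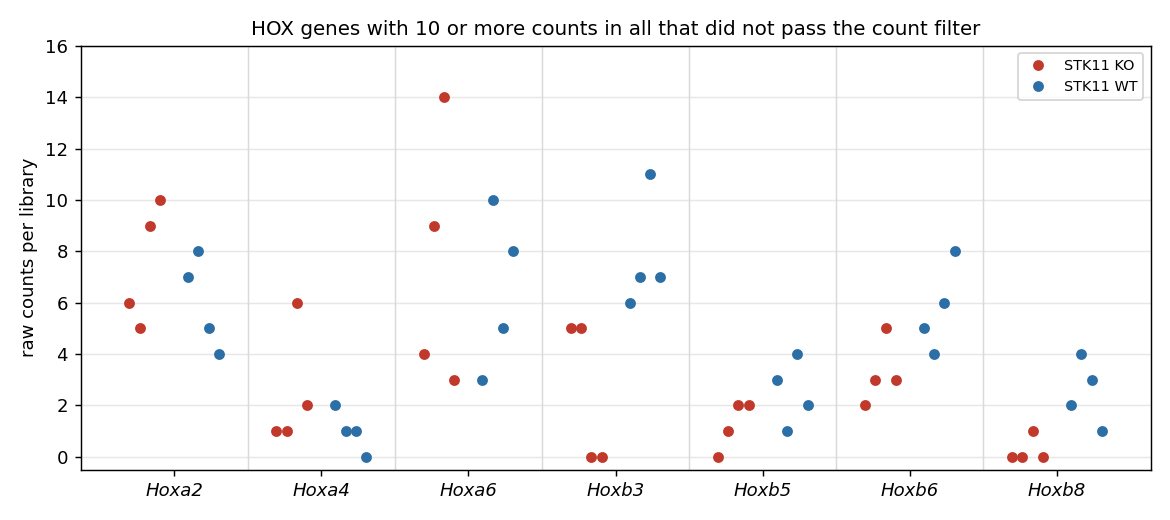
Raw counts per library (y axis) of the 7 HOX genes with 10 or more counts in all that did not pass the count filter, STK11 KO in red and STK11 WT in blue, 4 points each. Hoxb3 and Hoxb8 lie lower in STK11 KO, with values of 0 in 2 and 3 of the 4 STK11 KO libraries. The highest Hoxb8 count in STK11 KO equals the lowest in STK11 WT, at 1.

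The other Hoxb genes did not separate the groups. Hoxb6 had 13 counts in STK11 KO and 23 in STK11 WT, a ratio of STK11 WT over STK11 KO of 1.87 with a counting interval of 0.910 to 4.03. Hoxb5 had 5 counts in STK11 KO and 10 in STK11 WT, Hoxb4 2 in STK11 KO and 1 in STK11 WT, and Hoxb2 3 in STK11 KO and 0 in STK11 WT, while Hoxb1, Hoxb7, Hoxb9 and Hoxb13 had none in any library. The Hoxc cluster, on chromosome 15 from position 102829538 to 102945278, collected 5 counts in STK11 KO and 2 in STK11 WT. In STK11 KO these were 4 counts of Hoxc6 and 1 of Hoxc8, and in STK11 WT 1 of Hoxc6 and 1 of Hoxc4. The other 6 Hoxc genes had none. Exons of Hoxc5 and Hoxc10, and of Hoxd3 and Hoxd4, overlap on the same strand. Gm28230, a further row of that strand with 0 counts, shares 53.1% of the exon bases of Hoxd3 and 39.1% of those of Hoxd4, and Gm28309, also with 0 counts, shares 10.8% of those of Hoxd11 and 5.73% of those of Hoxd10. Reads shared in that way appeared to be left uncounted (0 of 156 rows nested in same-strand exons of abundant genes had a count), so the zeros of these genes hold for the rest of their exons.

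Between the HOX genes lay 47 other annotated rows, 20 of them long noncoding RNAs, of which 36 had no count in any library and 3 could be tested. Of these 3, 1 passed, beside 68.0% of all tested genes: Gm15050 rose in STK11 KO. It is a long noncoding RNA of chromosome 6, read from the plus strand between positions 52149861 and 52151039 (GRCm39), opposite in direction to the Hoxa genes and within the span of Hoxa3. Gm15050 was at 3.37, 2.82, 3.57 and 3.15 CPM in the STK11 KO libraries, against 1.19, 0.787, 1.01 and 0.978 CPM in the STK11 WT libraries. The groups did not overlap, as in 60.6% of all tested genes, and the log2 fold change was 1.71 ± 0.20 SE (edgeR adjusted p = 8.61e-08). Gm15050 and Hoxa5, both within the span of Hoxa3, thus changed in opposite directions.

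Hotairm1, a noncoding RNA of the plus strand in the low-numbered part of the Hoxa cluster, is linked in human myeloid cells to control of nearby HOXA genes and was at 4.16 ± 0.869 CPM in STK11 KO and 3.99 ± 0.807 CPM in STK11 WT (SD, n = 4 each; log2 fold change 0.08 ± 0.17 SE, edgeR adjusted p = 0.693). Hoxaas2, chosen after its values were seen, had 12, 17, 11 and 7 counts in the STK11 KO libraries and 2, 8, 10 and 4 in the STK11 WT libraries, and was too low to be tested. Hotair in the Hoxc cluster and Haglr in the Hoxd cluster had 0 counts in every library.

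**Figure D4:**
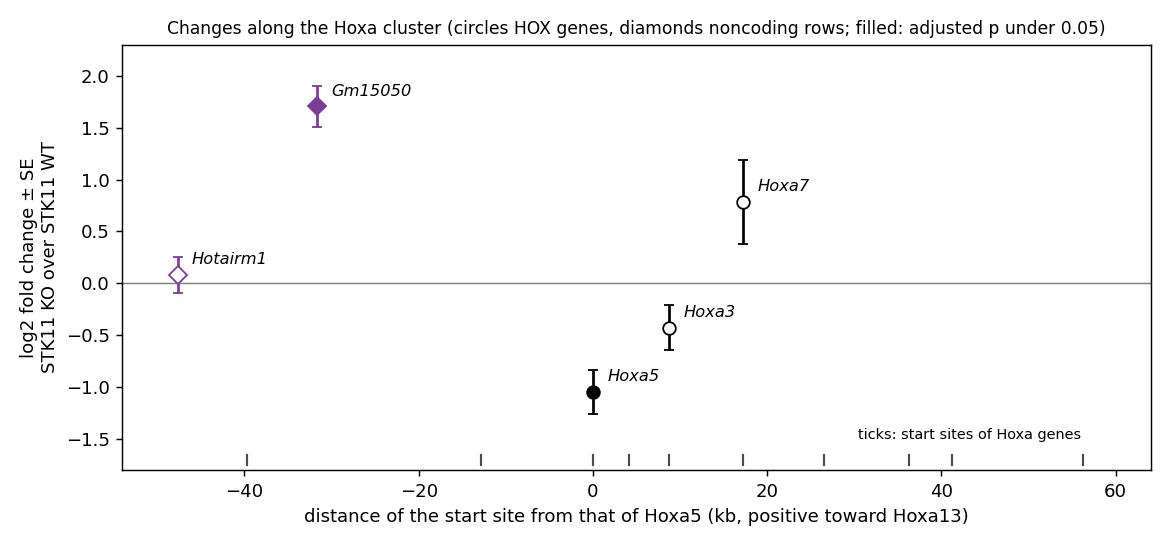
Log2 fold change, STK11 KO over STK11 WT, with its standard error (y axis) against the distance of the gene's start from that of Hoxa5 in kb (x axis, positive toward Hoxa13) for tested rows of the Hoxa cluster; circles are HOX genes, diamonds noncoding RNAs, filled symbols passed the test, and ticks mark starts of Hoxa genes. Gm15050 lies at 1.71 and Hoxa5 at -1.05, with Hotairm1 at 0.08.

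The promoters of the Hoxa-cluster genes that changed, Hoxa5 and Gm15050, are shown for comparison, as 250 bases before and 50 bases after the start in RefSeq (GRCm38.p6), 5′ to 3′ on the strand of the gene. Hoxa5 spans chr6:52204538-52204837 on the minus strand, where capitals mark TGACG, the core of the cAMP response element, and AGGTCA, the element that nuclear receptors bind in pairs. Gm15050 spans chr6:52172631-52172930 on the plus strand and has neither, so that no base is in capitals.
Hoxa5: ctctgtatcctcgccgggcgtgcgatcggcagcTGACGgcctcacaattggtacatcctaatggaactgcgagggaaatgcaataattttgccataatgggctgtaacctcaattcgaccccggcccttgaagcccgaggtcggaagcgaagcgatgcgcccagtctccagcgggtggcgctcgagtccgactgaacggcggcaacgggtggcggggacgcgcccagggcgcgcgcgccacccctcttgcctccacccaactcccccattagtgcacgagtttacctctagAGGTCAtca
Gm15050: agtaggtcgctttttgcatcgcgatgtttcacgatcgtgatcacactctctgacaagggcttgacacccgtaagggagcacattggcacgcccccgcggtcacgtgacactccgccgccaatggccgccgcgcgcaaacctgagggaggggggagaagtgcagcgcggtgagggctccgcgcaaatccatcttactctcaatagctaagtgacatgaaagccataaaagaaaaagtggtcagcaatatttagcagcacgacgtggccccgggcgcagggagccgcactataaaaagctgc
The Hoxa5 window held 29 CpG and 61.7% G and C, and the Gm15050 window 25 CpG and 57.0%. Both were richer in CpG than the median of 7.0 over 32851 mouse promoters and the median of 13.5 over the 22 HOX genes that the RefSeq table holds. Among those 22, the 12 genes with a count had a median of 13.5 CpG and the 10 genes without a count had 16.5.

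Motifs were searched on both strands, and a match is only a description of letters. The full cAMP response element TGACGTCA occurred in 1.79% of all promoters and in 0 of 24 entries for HOX genes. Its core TGACG occurred in 20.8% of all promoters and in 7 of the 24, and AGGTCA in 16.3% and 7 of the 24. In Hoxa5 these matches began 217 bases before and 42 bases after the start. TTTATG, bound by Cdx factors, occurred in 11.9% of all promoters and 5 of the 24, and TATAAA in 13.6% and 4 of the 24. Gm15050 held 1 match to each of these, TTTATG 29 bases before the start on the opposite strand and TATAAA 38 bases after it. The MEIS motif TGACAG (19.2% of all promoters, 2 of 24) and the PBX-HOX motif TGATNNAT (8.85%, 4 of 24) had no match in either window. A search for TGACG also finds every full TGACGTCA.

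Of the 5 nearest protein-coding genes on each side of each cluster, 40 in all and 8.75 to 1171 kb away, 30 could be tested, against 4 of the 39 HOX genes. Of the 8 genes that lay nearest, 1 on each side of each cluster, 4 could be tested. Of the 30 genes 12 were higher and 8 lower in STK11 KO. That share of 66.7% lies beside 68.0% of all tested genes, and the median log2 fold change was -0.004 for the flanking genes and 0.01 for all tested genes. On the low-numbered side of Hoxa the nearest gene was Skap2, 143.0 kb away, at 66.5 ± 1.36 CPM in STK11 KO and 63.7 ± 1.59 CPM in STK11 WT (SD, n = 4 each; edgeR adjusted p = 0.312). On the Hoxa13 side Evx1 had 0 counts in every library, and the next gene, Hibadh, was at 147.9 ± 11.9 CPM in STK11 KO and 159.1 ± 5.44 CPM in STK11 WT (edgeR adjusted p = 0.111). Neither of these neighbours of the Hoxa cluster passed, but Hibadh passed with scaling by library size alone (log2 fold change -0.19, edgeR adjusted p = 0.00327) and without STK11 KO replicate 1 (-0.14, edgeR adjusted p = 0.0283).

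Among the flanking genes, the falls with the smallest adjusted p were those of Calcoco1, 198.9 kb from Hoxc (log2 fold change -1.25 ± 0.06 SE), and Creb5, 1026 kb from Hoxa (-1.22 ± 0.11 SE). The rises with the smallest adjusted p were those of Nfe2l1, 449.2 kb from Hoxb (0.64 ± 0.06 SE), and Cbx5, 154.7 kb from Hoxc (0.50 ± 0.06 SE). The edgeR adjusted p was at most 9.12e-08 for each of these genes. Nfe2l1 encodes a transcription factor for proteasome genes, and Cbx5 encodes heterochromatin protein HP1-alpha. The Hoxd cluster, without counts, has genes with counts in both groups on either side. Lnpk was at 25.4 ± 1.07 CPM in STK11 KO and 20.6 ± 0.815 CPM in STK11 WT, and Mtx2 was at 59.4 ± 3.61 CPM in STK11 KO and 47.5 ± 0.996 CPM in STK11 WT (SD, n = 4 each), both higher in STK11 KO (edgeR adjusted p = 0.000735 and 5.54e-05). Evx2, 8.75 kb from Hoxd13, had 0 counts.

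Of 9 DNA-binding partners of HOX proteins, of the TALE homeodomain class, 8 could be tested, and Pknox2 had 0 counts in every library. Of the 8 tested members 4 changed, 1 higher and 3 lower (median log2 fold change -0.07), a share below the 68.0% of all tested genes. Meis1, a cofactor that binds DNA with HOX and PBX proteins, fell most, to 2.08, 1.69, 1.59 and 1.48 CPM in the STK11 KO libraries, against 13.9, 11.2, 17.8 and 14.9 CPM in the STK11 WT libraries. The groups lay far apart, with a log2 fold change of -3.08 ± 0.16 SE (edgeR adjusted p = 1.49e-13). Meis2 rose, at 8.46 ± 0.985 CPM in STK11 KO and 4.78 ± 0.694 CPM in STK11 WT (log2 fold change 0.83 ± 0.13 SE, edgeR adjusted p = 6.27e-06). Pbx4 fell to 0.260 ± 0.145 CPM in STK11 KO, against 1.72 ± 0.0876 CPM in STK11 WT (-2.64 ± 0.31 SE, edgeR adjusted p = 1.13e-07). Its 2, 4, 11 and 7 counts in the STK11 KO libraries lay below the filter, so that it entered the test through its STK11 WT libraries alone. Meis3, Pbx2 and Pbx3 had log2 fold changes of 0.02, -0.03 and -0.11 and did not pass.

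**Figure D5:**
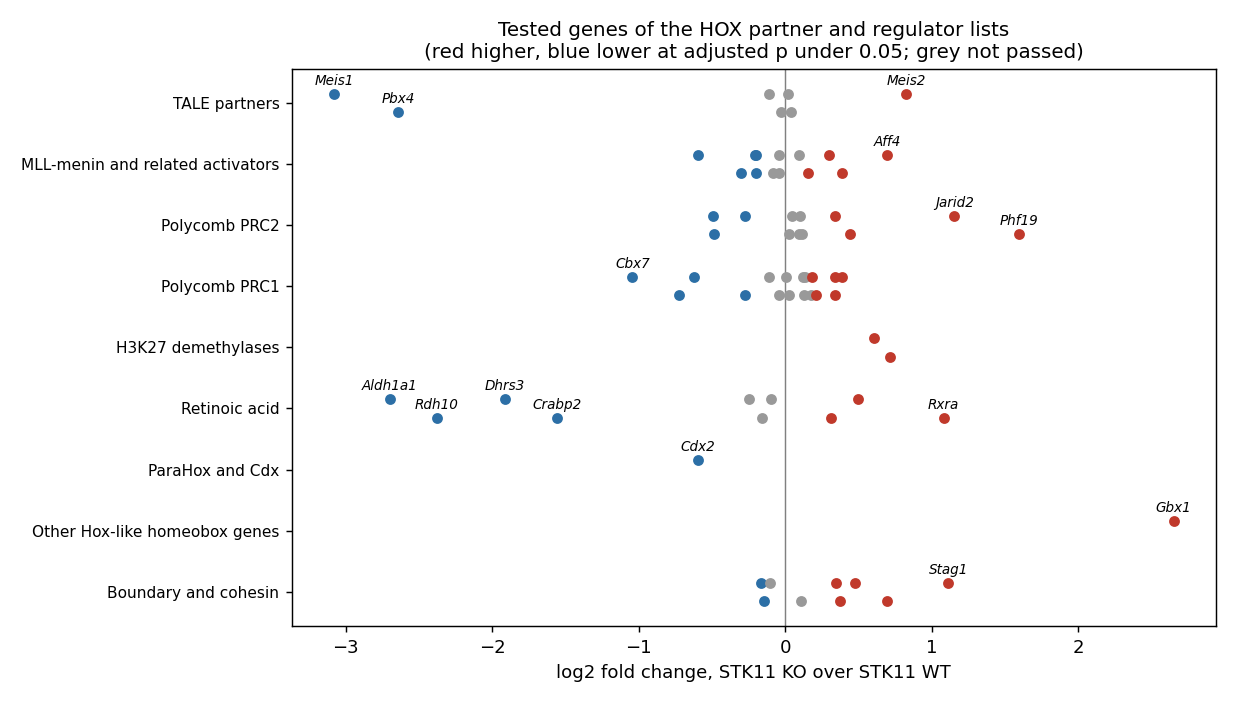
Log2 fold change, STK11 KO over STK11 WT (x axis), of tested genes of 9 lists of HOX partners and regulators (y axis). Each point is a gene, red where it was higher and blue where it was lower in STK11 KO (edgeR adjusted p under 0.05) and grey where it did not pass. TALE and retinoic acid genes reach furthest to the left, with Meis1 at -3.08 and Aldh1a1 at -2.70.

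Genes that maintain or silence HOX clusters changed in both directions, at shares between 52.9% and 100.0% per list, beside 68.0% of all tested genes. Of 13 MLL-menin and related activators, 4 were higher and 5 lower (median log2 fold change -0.04): Aff4 of the super elongation complex (0.69 ± 0.06 SE) and Ash2l of the methyltransferase core (0.39 ± 0.06 SE) rose, while Mllt1 (-0.59 ± 0.07 SE) and Wdr5 (-0.30 ± 0.06 SE) fell. Of 12 PRC2 genes, which place the repressive H3K27 methyl mark or assist in it, 4 were higher and 3 lower (median 0.10). Jarid2, an accessory subunit that helps recruit the complex, was at 37.7 ± 1.97 CPM in STK11 KO and 16.9 ± 0.807 CPM in STK11 WT (SD, n = 4 each; log2 fold change 1.15 ± 0.07 SE), and Phf19, another accessory subunit, rose to 5.11 ± 0.356 CPM in STK11 KO, against 1.69 ± 0.128 CPM in STK11 WT. Rbbp7 (-0.49 ± 0.05 SE) and Epop (-0.50 ± 0.11 SE) fell. EdgeR adjusted p-values of the genes named here were at most 0.000295.

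Of 17 PRC1 genes, whose products bind that mark or compact chromatin, 5 were higher and 4 lower (median 0.12). Bmi1 and Pcgf5, alternative core subunits, rose by 0.34 ± 0.06 SE each. Cbx7, a subunit that reads the H3K27 methyl mark, fell to 16.7 ± 0.608 CPM in STK11 KO, against 34.5 ± 1.68 CPM in STK11 WT (log2 fold change -1.04 ± 0.07 SE), and Cbx6 fell by 0.62 ± 0.07 SE. Both H3K27 demethylases rose, Kdm6b by 0.61 ± 0.06 SE and Kdm6a by 0.72 ± 0.07 SE. Of 9 boundary and cohesin genes, which organise chromosome loops, 5 were higher and 2 lower (median 0.35). Stag1 rose by 1.11 ± 0.07 SE, and Ctcf, which binds boundaries inside the HOX clusters, rose by 0.69 ± 0.06 SE. The falls in this list were those of Smc3 (-0.16 ± 0.06 SE, edgeR adjusted p = 0.0178) and Maz (-0.15 ± 0.06 SE, edgeR adjusted p = 0.0237), and both depended on single libraries. Smc3 missed the threshold without STK11 WT replicate 1 or 2 or STK11 KO replicate 4 (edgeR adjusted p up to 0.0915), and Maz without STK11 WT replicate 3 or 4 or STK11 KO replicate 2 or 4 (up to 0.104). The other PRC1, demethylase and boundary genes named here had edgeR adjusted p of at most 6.06e-05.

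Of 18 retinoic acid genes 11 were tested, of which 4 were higher and 4 lower (median log2 fold change -0.16), a share of 72.7% beside 68.0% of all tested genes. The median size of their log2 fold changes, without sign, was 1.08, beside 0.375 over all tested genes. Rdh10 and Aldh1a1, enzymes of retinoic acid synthesis, fell. Rdh10, which oxidises retinol to retinaldehyde, was at 43.4 ± 2.71 CPM in STK11 KO and 225.7 ± 5.41 CPM in STK11 WT (SD, n = 4 each; log2 fold change -2.38 ± 0.06 SE, edgeR adjusted p = 1.21e-19). Aldh1a1, which oxidises retinaldehyde to retinoic acid, fell to 1.88, 2.21, 0.970 and 1.48 CPM in the STK11 KO libraries, against 10.47, 10.28, 10.49 and 10.50 CPM in the STK11 WT libraries (-2.70 ± 0.16 SE, edgeR adjusted p = 1.08e-12). The groups were far apart for both enzymes. The receptors Rxra and Rara rose by 1.08 ± 0.08 SE and 0.50 ± 0.05 SE (edgeR adjusted p = 2.62e-11 and 3.07e-08).

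Of the other genes of that list, Aldh1a3, Dhrs3, Crabp2, Stra6 and Cyp26b1 were chosen after their values were seen. Cyp26a1 and Rarb were added for their role. Aldh1a3, of the same family as Aldh1a1, did not pass (edgeR adjusted p = 0.582). Its level was 1.26 ± 0.199 CPM in STK11 KO and 1.42 ± 0.458 CPM in STK11 WT. Dhrs3, which returns retinaldehyde to retinol, and Crabp2, which carries retinoic acid to the nucleus, fell (log2 fold change -1.91 ± 0.16 SE and -1.56 ± 0.33 SE, edgeR adjusted p = 2.83e-10 and 0.00024). Crabp2 passed the count filter through all 4 STK11 WT libraries and 1 of the STK11 KO libraries. Stra6, the cell surface receptor for retinol uptake, had 10, 12, 9 and 16 counts in the STK11 KO libraries and 0, 0, 1 and 0 in the STK11 WT libraries, and was too low to be tested. Cyp26a1 and Rarb, which retinoic acid induces in many cells, were near 0, Cyp26a1 with 2 counts in STK11 KO and 6 in STK11 WT and Rarb with 2 in STK11 KO and 1 in STK11 WT. Cyp26b1, of the same family as Cyp26a1, was present, at 5.47 ± 0.855 CPM in STK11 KO and 6.55 ± 0.315 CPM in STK11 WT. It did not pass (edgeR adjusted p = 0.0871).

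Homeobox genes related to the HOX clusters were mostly silent, as 5 of 6 ParaHox and Cdx genes and 7 of 9 other Hox-like genes had no count. Cdx2, an intestinal regulator that activates HOX genes in the embryo, was the exception of the first list and fell to 57.1 ± 1.85 CPM in STK11 KO, against 86.2 ± 3.08 CPM in STK11 WT (SD, n = 4 each; log2 fold change -0.59 ± 0.05 SE, edgeR adjusted p = 2.06e-09). Gbx1 was the 1 tested gene of the second list and rose to 1.94 ± 0.554 CPM in STK11 KO, against 0.308 ± 0.114 CPM in STK11 WT (log2 fold change 2.65 ± 0.33 SE, edgeR adjusted p = 2.23e-07). Gbx1 passed the count filter through all 4 STK11 KO libraries and 1 of the STK11 WT libraries. Whether any of these changes bears on Hoxa5 was not tested.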

How the data were processed

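Stranded mRNA libraries were made from 100 ng of RNA and read as pairs of 51 bp, per the labels' protocols. FastQC 0.11.8, STAR 2.7.9a, limma, edgeR, featureCounts 1.6.0 and the build GRCm39 are named in the submitters' processing notes, without an annotation release or settings. The deposited files were a table of raw counts for 56884 rows and a second table of log2 CPM in voom's form for 15726 genes. Columns were matched to samples by the library names in the labels. The sources used here do not give the strand setting: of 73 rows nested in exons of an abundant gene on the opposite strand, 83.6% had counts, against 0.0% of 156 on the same strand. The counts therefore behaved as assigned by strand.

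Genotypes were compared by the quasi-likelihood test of edgeR 4.0.16 (robust, genotype as the only term, TMM scaling, default filterByExpr with a minimum count of 10), fitted to all 13707 genes that passed the filter, with Benjamini-Hochberg adjustment over them. Genes passed at an adjusted p under 0.05, and "rose", "fell", "higher" and "lower" of a gene's test refer to those. Log2 fold changes are STK11 KO over STK11 WT. CPM were computed from raw counts and TMM-scaled library sizes. The 95% intervals of log2 fold changes are 1.96 SE on each side, an approximation that is narrower than the quasi-likelihood test implies. The 95% intervals of count ratios are exact and cover counting error only. The HOX genes, the lists and the alternatives were chosen with earlier results of these data known. Named genes were the HOX genes, Stk11 and, for each other set, the 2 rises and 2 falls of lowest adjusted p, where there were so many. The nearest flanking genes, Hotairm1, Hotair, Haglr, Hoxb3os, Cyp26a1, Rarb and other TALE genes were added for their position or role, and the remaining ones are said to have been chosen after their values were seen. Samples with the same replicate number did not deviate together. Alternatives were other scalings, filters and tools (DESeq2 1.42.0, limma 3.58.1), glmTreat at a log2 threshold of 1, a block for replicate number, and leaving out each library. The steps were run on simulated data in which far fewer genes changed than in the real comparison. They recovered 72.6% of 1.5-fold, 90.6% of 2-fold and 95.2% of 4-fold changes, with 8 false calls among 179. The changed genes were drawn from all tested genes, so these rates cannot be read as the recovery at the low counts of the HOX genes. R 4.3.3, Python 3.11.15, pandas 2.3.3, numpy 2.4.6, scipy 1.17.1 and matplotlib 3.10.9 were used. Exon lengths and transcripts came from GENCODE vM21 (GRCm38), promoters from RefSeq, and no coordinates were converted between builds. No sample was left out. A few genes and sequences, and the results that need them, are not reported here.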

Additional observations from a re-analysis of the deposited data

Results flagged for a closer look

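Of 152 groups of 4 libraries examined, 13 had 1 library far from the other 3, the gap to the nearest library being a larger part of the group's range than Dixon's 95% critical value. Groups without a count in any library were among the 152 and could not be flagged. Chance alone gives about 1 in 20 groups where values spread normally, a rate that does not apply to groups of very low counts. The 13 of 152 therefore cannot be set against it. In 9 of these the gap was the whole range, 1.0, because a single library held the counts: Hoxb8 and Hoxc8 in STK11 KO, Hoxb4 in both STK11 KO and STK11 WT, and Hoxa9, Hoxa11, Hoxa13, Hoxc4 and Hoxc6 in STK11 WT. The counts were 1 in STK11 KO for Hoxb8 and Hoxc8, 2 in STK11 KO and 1 in STK11 WT for Hoxb4, and 1 to 3 in STK11 WT for the others. The other 4 were Creb5 in STK11 KO (0.888) and Aldh1a1 (0.857), Rxra (0.837) and Ash2l (0.833) in STK11 WT. All 4 of these genes passed the test with groups that did not overlap. Of all tested genes 68.0% passed and 60.6% did not overlap. The 4 genes had been named for their low adjusted p, so this outcome was largely set in advance.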

How the results depend on the processing

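Hoxa5 passed the test under all 18 settings, with a log2 fold change of -1.18 to -0.91 and an adjusted p of 8.95e-06 to 0.00101. The number of HOX genes that changed was 1 in the report and 1 to 2 when single libraries were left out. It was 2 under scaling by library size alone, 3 with no filter, 2 by limma on the deposited log2 table and 2 with the replicate number as a block. The second gene was Hoxa3 under scaling by library size alone (log2 fold change -0.51, adjusted p = 0.05), with the block (-0.45, adjusted p = 0.0438) and without WT replicate 2 or KO replicate 3, and Hoxa7 without WT replicate 1 or KO replicate 1. The 2-fold count was 1 in the report, 3 with no filter, 2 in the deposited table and 0 when glmTreat tested against 2-fold, and ran from 0 to 2 when single libraries were left out. It was 0 without KO replicate 1 or 2 and 2 without WT replicate 1. Of the noncoding rows 1 changed, and 1 to 2 when single libraries were left out, the second being Hoxaas2 without KO replicate 4 (log2 fold change 1.05, adjusted p = 0.0461). Hoxa7 was absent with a filter of 1 CPM. Deviations of samples with the same replicate number correlated at -0.121 to 0.0352, so the number was not taken as a pairing; over all genes the block gave 9182 calls against 9322. Scaling by library size alone moved the median log2 fold change by -0.08. Of 47 named genes with a test, Aldh1a3 and Cyp26b1 not among them, the 38 that passed kept their direction under 14 alternatives each. Of those that did not pass, Meis3, Skap2 and Hotairm1 turned negative under scaling by library size alone (log2 fold change -0.06, -0.02 and -0.001), and Meis3, Hotairm1 and Pbx2 turned with some single libraries left out (-0.06 to 0.05, -0.04 to 0.18 and -0.12 to 0.01 over all settings). With 1 count worth up to 0.0515 CPM, changes of the 35 HOX genes that did not pass the filter were mostly not detectable. The causes of these differences were not tested.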
